A study of Saccharomyces cerevisiae BY4741 with 8 samples.

Results

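The genes described here encode the enzymes that carry glucose to ethanol and acetate in budding yeast, together with the few that run the path backwards. All 35 of them were on the array, out of 6388 genes, as 67 of its features, because *TDH1* and *TDH2* were printed 17 times each and the others once. The rule that defines them uses function and systematic name, and the set was put together with earlier results of these data known. It holds 8 genes from hexose phosphorylation to the triose phosphates, 9 from the triose phosphates to pyruvate, 3 pyruvate decarboxylases, 6 alcohol dehydrogenases, 5 aldehyde dehydrogenases and 4 genes of gluconeogenesis and anaplerosis. In glucose medium, yeast cells phosphorylate the sugar, split it into triose phosphates and oxidize these to pyruvate. Pyruvate is then decarboxylated to acetaldehyde, most of which is reduced to ethanol and some of which is oxidized to acetate. Many of these steps have more than one isozyme, and glucose keeps the genes of gluconeogenesis and of ethanol use at low transcript levels.

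KP1019 is a ruthenium complex that binds DNA and was developed as an anticancer agent. Early log phase cultures of *S. cerevisiae* BY4741 in synthetic complete medium with glucose were split, and cells treated with 40 μg/ml KP1019 for 3 h, or cells treated with 80 μg/ml for 3 h, were compared with untreated cells of the same culture. Each dose had 2 biological replicates, and each replicate was hybridized to 2 spotted arrays on which Cy5 and Cy3 were switched between treated and untreated cDNA (dye reversal), so that there were 8 arrays. BY4741 is known as a haploid strain of mating type a that lacks *LEU2*, *MET15*, *URA3* and part of *HIS3*. By its label, treated and untreated cells would share these deletions, which the arrays bear out only in part. Every value below is a log2 ratio of treated to untreated intensity unless it is called an intensity, and a positive ratio means more signal from treated cells. The labels do not say what separated the 2 biological replicates of a dose, so that the p-values measure the spread between these samples.

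The marker genes of the strain did not give the same picture on all arrays. A spot was counted as above the blanks if its intensity exceeded the median of the 85 blank spots by more than 3 median absolute deviations. The marker intensities are foreground intensities that were not normalized, so that they also carry the brightness of array and channel. The median over all genes at 40 μg/ml was 287.1 to 1137 in treated and 597.6 to 1768 in untreated cells. At 80 μg/ml it was 688 to 3676 in treated and 500.3 to 3948 in untreated cells. At 80 μg/ml, the 4 genes of a cells (*STE2*, *MFA1*, *MFA2* and *BAR1*) were above the blanks in 16 of 16 measurements of treated and 16 of 16 of untreated cells, and their summed intensity lay between 31400 and 74610 in treated and between 37300 and 105200 in untreated cells. At 40 μg/ml, these genes were above the blanks in 11 of 16 measurements of treated and 13 of 16 of untreated cells. Their summed intensity there lay between 525.7 and 12460 in treated and between 546.4 and 24070 in untreated cells. Both highest values came from *STE2* on 1 array. The sums of the 3 genes of alpha cells (*STE3*, *MFALPHA1* and *MFALPHA2*) ran the other way. They were 1067 to 6102 in treated and 3999 to 12060 in untreated cells at 40 μg/ml. At 80 μg/ml they were 436.8 to 2336 in treated and 233.2 to 1606 in untreated cells. These genes were above the blanks in 11 of 12 measurements of treated and 12 of 12 of untreated cells at 40 μg/ml. At 80 μg/ml this held for 10 of 12 in treated and 10 of 12 in untreated cells. *MET15* was above the blanks in both channels of all 8 arrays, and so was *HIS3*, which the labelled strain lacks only in part. *LEU2* was above them in treated cells on 1 of 4 and in untreated cells on 4 of 4 arrays at 40 μg/ml, and in treated cells on 2 of 4 and in untreated cells on 1 of 4 arrays at 80 μg/ml. Some of these genes also differed between treated and untreated cells. The log2 ratio at 40 μg/ml was -1.45 ± 0.24 for *MET15* (adjusted p = 0.00456), -1.16 ± 0.67 for *MFALPHA2* (adjusted p = 0.0158) and -0.57 ± 0.08 for *LEU2* (adjusted p = 0.0464), and at 80 μg/ml it was -1.35 ± 0.09 for *BAR1* (adjusted p = 0.00682) and 0.81 ± 0.20 for *STE3* (adjusted p = 0.0416; SD, n = 2 each). *URA3* was above the blanks in 1 channel of 1 array. By these summed intensities, the mating-type markers on the arrays labelled 40 μg/ml thus go against the labelled strain. *MET15* does so on all arrays by its signal above the blanks. Dose and this difference between the arrays cannot be told apart wherever the doses are compared below, and its part in the ratios of treated to untreated cells was not tested.

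At 40 μg/ml, 6 of the 35 genes rose and 6 fell past an adjusted p of 0.05 in limma, and at 80 μg/ml 1 rose and 2 fell. Of all 6388 genes, 13.0% rose and 10.3% fell at 40 μg/ml, and 2.11% rose and 1.41% fell at 80 μg/ml. The calls among these genes thus made up 34.3% of them at 40 μg/ml, against 23.3% of all genes, and 8.57% at 80 μg/ml, against 3.52% of all genes. The median log2 ratio of the 35 genes was 0.13 at 40 μg/ml and 0.08 at 80 μg/ml, while that of all genes was -0.01 and 0.00. This small shift depended on the scaling. After median centring of the arrays the 35 genes gave -0.06 and 0.02, and all genes 0.01 and -0.01. With the authors' ratios the 35 genes gave 0.05 and 0.05, and all genes 0.08 and 0.06. The genes that rose were *TDH1*, *ENO2*, *PDC6*, *SFA1*, *ALD3* and *PCK1*, and those that fell at 40 μg/ml were *HXK2*, *PFK1*, *ADH4*, *ALD4*, *ALD6* and *PYC1*. *PDC6* also rose and *ADH4* also fell at 80 μg/ml, where *PYC2* was the other gene that fell. The 12 genes that changed at 40 μg/ml thus had no common direction. Median centring of each array in place of loess gave 3 higher and 9 lower at that dose. With each dose fitted alone, 9 of the 35 genes passed at 40 μg/ml and 8 at the higher dose. That fit keeps the arrays at 80 μg/ml apart from those whose markers go against the strain. The counts under these settings stand without the share of all genes called, so they are not read as particular to the 35 genes.

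**Figure D1:**
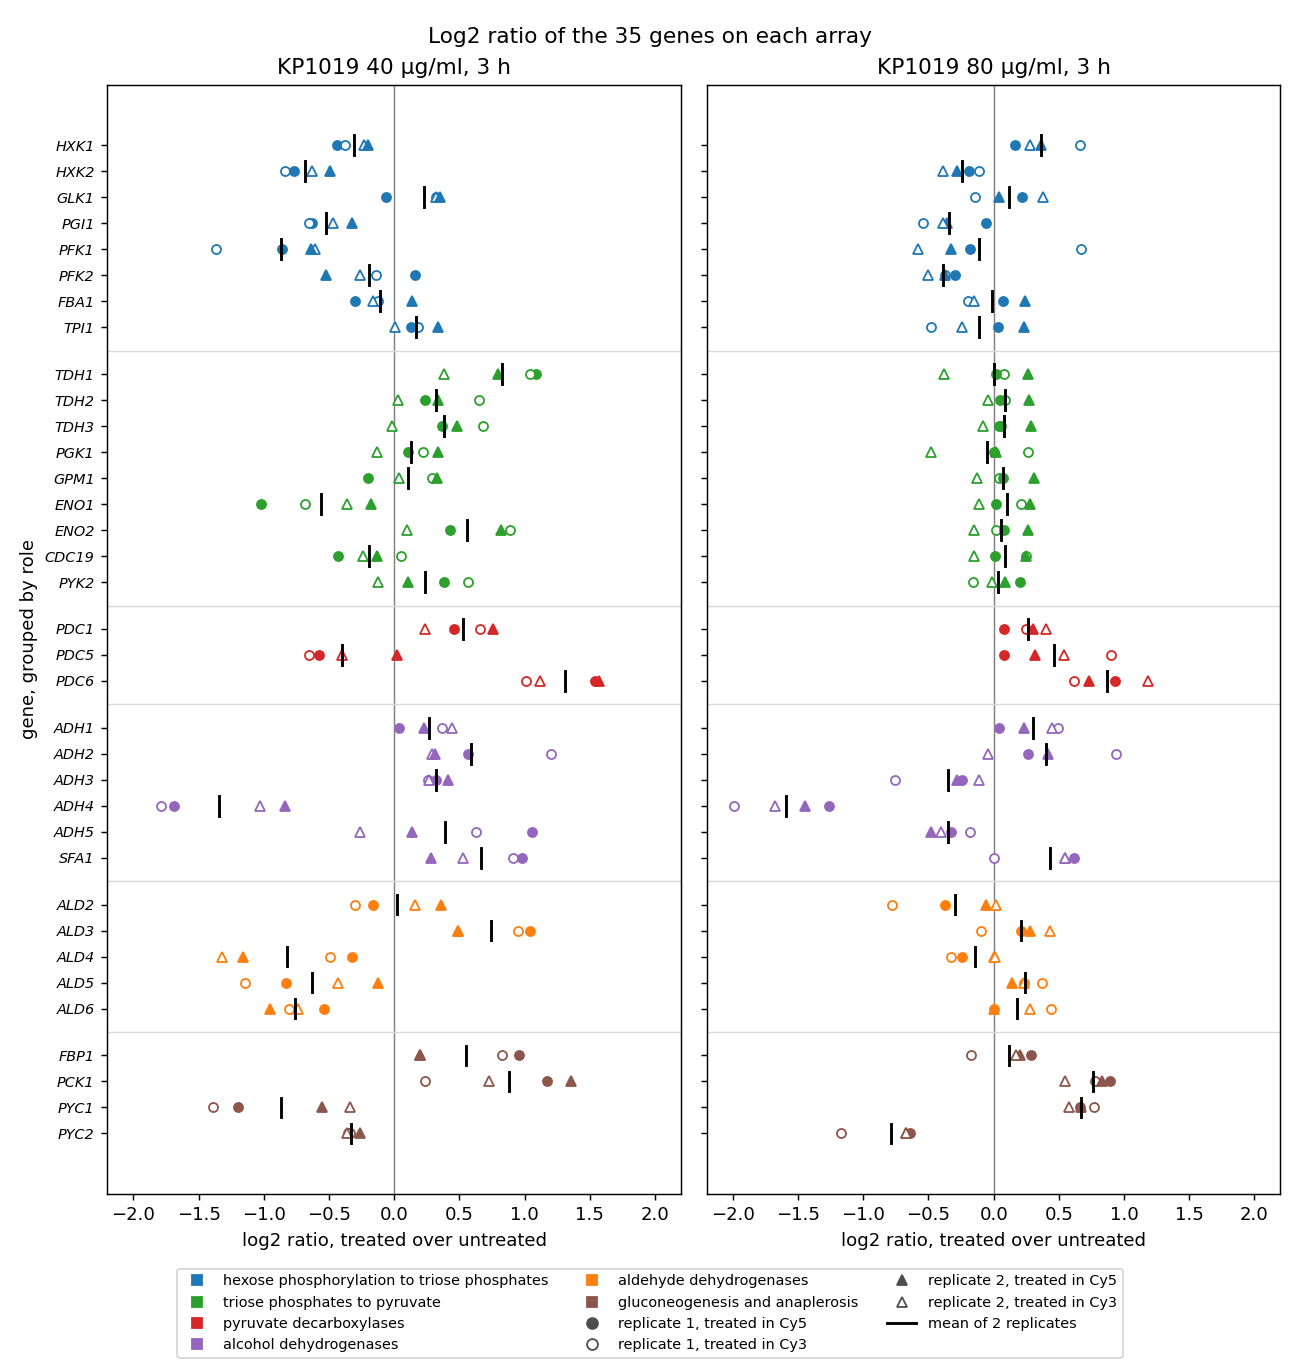
Log2 ratio of treated to untreated intensity (horizontal axis) for each of the 35 genes (rows, coloured by role) on the 4 arrays at 40 μg/ml (left) and the 4 arrays at 80 μg/ml (right). Circles are replicate 1 and triangles replicate 2, filled where treated cDNA carried Cy5 and open where it carried Cy3, and black bars are means of 2 replicates. *ADH4* lies below 0 and *PDC6* above 0 on all 8 arrays. The means of the genes from *TDH1* to *PYK2* lie close to 0 at 80 μg/ml, where the 2 dye orientations of replicate 2 lie on opposite sides of 0.

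The direction on the single arrays was compared next. *PDC1*, *PDC6*, *ADH1* and *PCK1* were higher in treated cells on 8 of 8 arrays, which held for 10.4% of all genes. *HXK2*, *PGI1*, *ADH4* and *PYC2* were lower on 8 of 8 arrays, which held for 9.78% of all genes. The counts of 4 and 4 of 35 lie near those shares. By the criteria of the study's methods (a 3.5-fold change or more in both replicates, with limits on the difference between dye-reversal arrays), 0 of the 35 genes qualified at either dose. Of all 6388 genes, 14 rose and 10 fell by these criteria at 40 μg/ml, and 5 rose and 10 fell at 80 μg/ml. With a 2-fold threshold in place of 3.5-fold, *PDC6* qualified at 40 μg/ml and *ADH4* at 80 μg/ml. Over all genes that threshold gave 113 higher and 54 lower at 40 μg/ml, and 55 higher and 40 lower at 80 μg/ml. So few genes among 35 are not read as particular to this set.

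The upper part of glycolysis held 8 genes, of which 2 fell and 0 rose at 40 μg/ml, and 0 passed the test at 80 μg/ml. Called genes made up 25% of the 8 at 40 μg/ml, near the 23.3% of all genes. Their median log2 ratio was -0.25 at 40 μg/ml and -0.11 at 80 μg/ml. *HXK2* (YGL253W), the main hexokinase of cells on glucose, had log2 ratios of -0.77 and -0.84 on the arrays of replicate 1 and of -0.63 and -0.49 on those of replicate 2 at 40 μg/ml. It fell at that dose by 0.68 on the log2 scale (1.61-fold, adjusted p = 0.0270). Its ratios at 80 μg/ml were -0.11, -0.19, -0.28 and -0.39, below 0 on every array but with an adjusted p of 0.502. The call at 40 μg/ml was lost in 6 of 16 alternatives, among them subtracted background (adjusted p = 0.079) and each dose fitted alone (0.0511). Leaving out either replicate of 80 μg/ml gave that same fit, so that these alternatives are 1 test. It was also lost with treated cDNA in Cy3 alone (0.0511) and without replicate 1 of 40 μg/ml, where replicate 2 averaged -0.56. *HXK1* (YFR053C), a hexokinase held low by glucose, averaged -0.31 ± 0.14 at 40 μg/ml and 0.36 ± 0.06 at 80 μg/ml (SD, n = 2 each), and neither mean passed the test. *GLK1* (YCL040W), the glucokinase, averaged 0.23 ± 0.15 at 40 μg/ml and 0.12 ± 0.12 at 80 μg/ml. The ratio of *HXK1* stood above that of *HXK2* on all 8 arrays, by 0.37 ± 0.04 at 40 μg/ml and 0.61 ± 0.07 at 80 μg/ml (SD, n = 2 each), and that of *GLK1* stood above it on 4 of 4 arrays at 40 μg/ml by 0.91 ± 0.03.

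*PFK1* (YGR240C), which encodes the alpha subunit of phosphofructokinase, had ratios of -0.86 and -1.37 in replicate 1 and of -0.61 and -0.64 in replicate 2 at 40 μg/ml. It fell by 0.87 on the log2 scale (1.82-fold, adjusted p = 0.0300). The call was lost in 3 of 16 alternatives, with subtracted background (adjusted p = 0.0804), with treated cDNA in Cy3 alone (0.0571) and without replicate 1, where replicate 2 averaged -0.62. The 4 arrays at 80 μg/ml gave 0.67, -0.18, -0.33 and -0.58, so that the pair of dye-reversal arrays of replicate 1 disagreed in sign. *PFK2* (YMR205C), the beta subunit of the same enzyme, averaged -0.19 ± 0.28 at 40 μg/ml and -0.39 ± 0.07 at the higher dose and did not pass the test. The ratio of *PFK1* was below that of *PFK2* on 4 of 4 arrays at 40 μg/ml, with a difference of -0.68 ± 0.63, and above it on 3 of 4 arrays at 80 μg/ml (0.28 ± 0.42), so that neither difference was clearly larger than the spread between replicates. *PGI1* (YBR196C), phosphoglucose isomerase, was lower on 8 of 8 arrays with means of -0.52 ± 0.17 and -0.34 ± 0.05, and its adjusted p was 0.0572 at 40 μg/ml and 0.325 at 80 μg/ml. *FBA1* (YKL060C), the aldolase, and *TPI1* (YDR050C), triosephosphate isomerase, lay between -0.11 and 0.17 in the mean of either dose.

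From the triose phosphates to pyruvate, 2 of 9 genes rose and 0 fell at 40 μg/ml. At 80 μg/ml 0 passed the test, and all 9 means lay between -0.05 and 0.10. In replicate 2 at that dose these means average opposite signs. All 9 genes gave 0.02 to 0.31 with treated cDNA in Cy5 and -0.48 to -0.01 with it in Cy3. The pair of replicate 1 was not split in this way, and the part of the dye was not tested. The called share at 40 μg/ml was 22.2%, near the 23.3% of all genes. *TDH1* (YJL052W) encodes a minor one of the glyceraldehyde-3-phosphate dehydrogenases. At 40 μg/ml its ratios were 1.09 and 1.04 in replicate 1 and 0.38 and 0.80 in replicate 2, all above 0. It rose by 0.83 on the log2 scale (1.77-fold, adjusted p = 0.0191), a call that was lost in 3 of 16 alternatives, with median centring (adjusted p = 0.0536), subtracted background (0.0724) and the arrays with treated cDNA in Cy3 alone (0.0809). Its 17 spots on an array agreed closely, with an SD between 0.06 and 0.12 at 40 μg/ml. Its ratios at the higher dose were 0.08, 0.02, 0.26 and -0.38 around a mean of 0.00. The other copies, *TDH2* (YJR009C) and *TDH3* (YGR192C), averaged 0.32 ± 0.19 and 0.38 ± 0.21 at 40 μg/ml and did not pass the test. *TDH1* stood above *TDH3* on 4 of 4 arrays at 40 μg/ml by 0.45 ± 0.13 (SD, n = 2). The 3 *TDH* genes are close in sequence, as are the pairs *ENO1* and *ENO2*, *PDC1* and *PDC5*, and *ADH1* and *ADH2*. How far a spot also bound cDNA of a related gene was not tested.

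*ENO2* (YHR174W), the enolase that glucose induces, had ratios of 0.43, 0.89, 0.10 and 0.82 at 40 μg/ml and rose by 0.56 on the log2 scale (1.47-fold, adjusted p = 0.0436). This call was among the least stable, since it passed in 5 of 16 alternatives. It did not pass with each dose fitted alone (adjusted p = 0.126). Leaving out either replicate of 80 μg/ml gave that same fit, so that these alternatives are 1 test. It was also lost without replicate 1 of 40 μg/ml, where replicate 2 averaged 0.46. *ENO1* (YGR254W), the enolase of cells short of glucose, gave -1.02, -0.68, -0.36 and -0.18 with a mean of -0.56 ± 0.41 and an adjusted p of 0.0685. The ratio of *ENO1* was thus below that of *ENO2* on 4 of 4 arrays at 40 μg/ml, with a difference of -1.12 ± 0.55, whereas the difference at 80 μg/ml was 0.04 ± 0.03 (SD, n = 2 each). *PGK1* (YCR012W), *GPM1* (YKL152C) and *CDC19* (YAL038W) encode phosphoglycerate kinase, phosphoglycerate mutase and the main pyruvate kinase. Their means lay between -0.19 and 0.13 at 40 μg/ml and between -0.05 and 0.09 at 80 μg/ml. *PYK2* (YOR347C), the pyruvate kinase that glucose represses, averaged 0.24 ± 0.34 and 0.03 ± 0.01.

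The 3 pyruvate decarboxylases, which make acetaldehyde from pyruvate, differed among themselves. *PDC6* (YGR087C) encodes the minor isozyme. Its ratios were 1.54 and 1.01 in replicate 1 and 1.12 and 1.57 in replicate 2 at 40 μg/ml, and 0.62 and 0.93 in replicate 1 and 0.73 and 1.18 in replicate 2 at 80 μg/ml, so that it was higher in treated cells on all 8 arrays. It rose by 1.31 ± 0.05 at 40 μg/ml (2.47-fold, adjusted p = 0.00456) and by 0.87 ± 0.13 at 80 μg/ml (1.82-fold, adjusted p = 0.0287; SD, n = 2 each). The rise at 40 μg/ml passed in 15 of 15 alternatives. The rise at 80 μg/ml was lost in 7 of 15. Among these were median centring (adjusted p = 0.0596), subtracted background (0.136) and total pixel intensity (0.0821). Either dye orientation alone lost it too (0.0558 with treated cDNA in Cy5 and 0.0593 in Cy3). It was also lost without replicate 1, where replicate 2 averaged 0.96, and without replicate 2, where replicate 1 averaged 0.77. *PDC6* was dim, with normalized intensities of 183 to 685 in treated and 91 to 316 in untreated cells at 40 μg/ml, and of 165 to 1205 in treated and 108 to 632 in untreated cells at 80 μg/ml. Of the 4 arrays of a dose, its spot was above the blanks in treated cells on 3 at the lower and 4 at the higher dose, and in untreated cells on 3 at either dose.

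*PDC1* (YLR044C), the main pyruvate decarboxylase, gave 0.46, 0.66, 0.24 and 0.76 at 40 μg/ml and 0.25, 0.08, 0.30 and 0.40 at 80 μg/ml. It was higher on every array, with adjusted p-values of 0.0508 and 0.462. *PDC5* (YLR134W), an isozyme that is raised when *PDC1* is lost, averaged -0.40 ± 0.30 at the lower and 0.46 ± 0.04 at the higher dose (adjusted p = 0.136 and 0.214). The ratio of *PDC6* was above that of *PDC1* on all 8 arrays, by 0.78 ± 0.10 and 0.61 ± 0.00. The ratio of *PDC5* was below that of *PDC1* on 4 of 4 arrays at 40 μg/ml, with a difference of -0.93 ± 0.35, and above it on 3 of 4 arrays at 80 μg/ml (0.20 ± 0.18).

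Of the alcohol dehydrogenases, 1 of 6 rose and 1 fell at 40 μg/ml, and 1 fell at 80 μg/ml. The called shares were 33.3% and 16.7%, against 23.3% and 3.52% of all genes. *ADH4* (YGL256W), whose transcription is known to be raised when zinc is scarce, showed the largest decrease of the 35 genes at either dose. At 40 μg/ml its ratios were -1.69 and -1.79 in replicate 1 and -1.03 and -0.84 in replicate 2, and its normalized intensity was 707 to 3642 in treated cells, against 2450 to 7412 in untreated cells. At 80 μg/ml its ratios were -1.99 and -1.26 in replicate 1 and -1.45 and -1.68 in replicate 2, and its intensity was 396 to 4368 in treated cells, against 1568 to 10453 in untreated cells. Treated cells were below untreated cells on each of the 8 arrays. *ADH4* fell by 1.34 ± 0.57 at 40 μg/ml (2.53-fold, 95% confidence interval of the log2 ratio -1.84 to -0.84, adjusted p = 0.00884) and by 1.59 ± 0.04 at 80 μg/ml (3.02-fold, interval -2.09 to -1.09, adjusted p = 0.00944; SD, n = 2 each). The difference of 80 from 40 μg/ml was -0.26, with an interval of -0.96 to 0.45. The call at 40 μg/ml passed in 15 of 15 alternatives and that at 80 μg/ml in 14 of 15, the exception being plain subtraction of the background (adjusted p = 0.0812). A fit restricted to genes above the 95th percentile of the blanks left *ADH4* out and is not among these.

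*SFA1* (YDL168W), which encodes an enzyme active on both formaldehyde bound to glutathione and long-chain alcohols, gave 0.98, 0.91, 0.53 and 0.28 at 40 μg/ml. It rose by 0.67 on the log2 scale (1.59-fold, adjusted p = 0.0409), a call that passed in 6 of 15 alternatives. It did not pass with each dose fitted alone (adjusted p = 0.0554). Leaving out either replicate of 80 μg/ml gave that same fit, so that these alternatives are 1 test. It was also lost without replicate 1 of 40 μg/ml, where replicate 2 averaged 0.40. *SFA1* averaged 0.43 ± 0.17 at 80 μg/ml (adjusted p = 0.282). *ADH1* (YOL086C), the main enzyme of ethanol formation, was higher on 8 of 8 arrays with means of 0.27 ± 0.10 and 0.30 ± 0.05, and did not pass the test. The ratio of *ADH4* was below that of *ADH1* on all 8 arrays, with a difference of -1.61 ± 0.48 at the lower dose and -1.89 ± 0.01 at the higher (SD, n = 2 each). *ADH2* (YMR303C), which oxidizes ethanol and is repressed by glucose, averaged 0.59 ± 0.41 and 0.40 ± 0.29 (adjusted p = 0.0721 and 0.356). *ADH3* (YMR083W), the mitochondrial isozyme, averaged 0.32 ± 0.03 and -0.35 ± 0.21, and *ADH5* (YBR145W) 0.39 ± 0.64 and -0.35 ± 0.13.

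**Figure D2:**
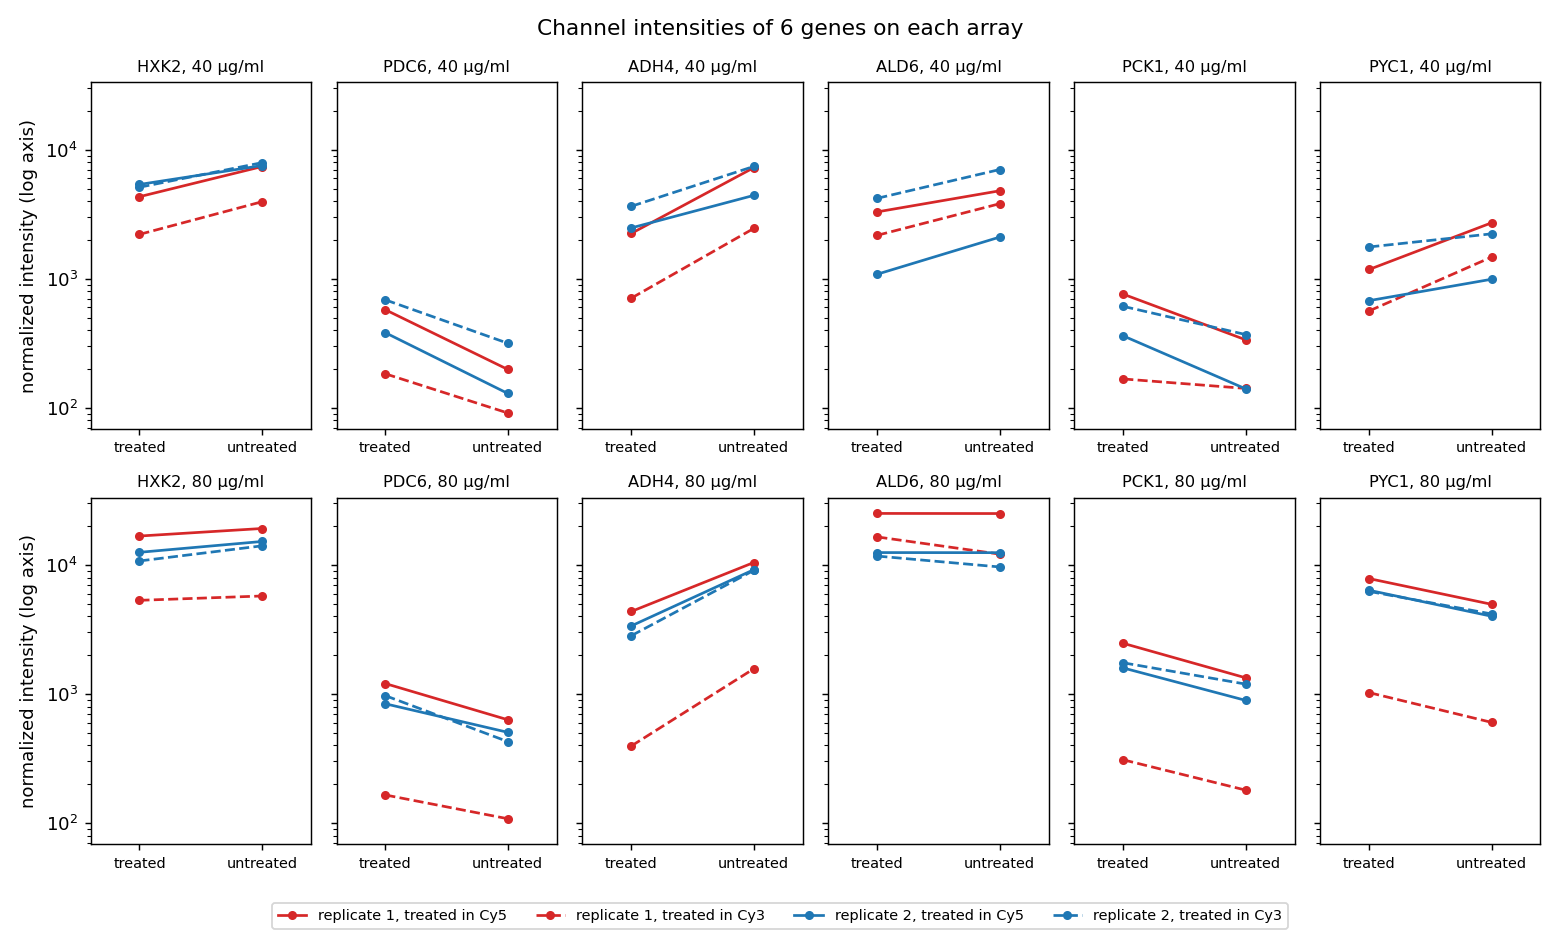
Normalized intensity (log axis, arbitrary units) of 6 genes in treated (left) and untreated (right) cells on each array, at 40 μg/ml (upper row) and 80 μg/ml (lower row). Each line is 1 array, red for replicate 1 and blue for replicate 2, solid where treated cDNA carried Cy5 and dashed where it carried Cy3. All 8 lines of *ADH4* end higher in untreated cells and all 8 of *PDC6* and *PCK1* end lower, while those of *PYC1* run in opposite directions at the 2 doses.

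Among the 5 aldehyde dehydrogenases, a family that includes the enzymes forming acetate from acetaldehyde, 1 rose and 2 fell at 40 μg/ml. At 80 μg/ml 0 passed the test. The called share at 40 μg/ml was 60%, against 23.3% of all genes. *ALD6* (YPL061W), the main cytosolic enzyme, had ratios of -0.54 and -0.81 in replicate 1 and -0.74 and -0.95 in replicate 2 at 40 μg/ml. It fell by 0.76 ± 0.12 (1.70-fold, adjusted p = 0.0174; SD, n = 2), and the call was lost in 1 of 16 alternatives, plain subtraction of the background (adjusted p = 0.0644). At 80 μg/ml it gave 0.44, 0.00, 0.00 and 0.28, with a mean of 0.18 and an adjusted p of 0.626. *ALD4* (YOR374W), the main mitochondrial enzyme, gave -0.32 and -0.49 in replicate 1 and -1.32 and -1.16 in replicate 2 at 40 μg/ml. It fell by 0.82 ± 0.60 (1.77-fold, adjusted p = 0.0372), with replicate 2 far below replicate 1. The call was lost in 3 of 16 alternatives, with subtracted background (adjusted p = 0.0862), with treated cDNA in Cy5 alone (0.0657) and without replicate 2, where replicate 1 averaged -0.40. *ALD3* (YMR169C), a cytosolic enzyme induced by stress, gave 1.04, 0.95, 0.49 and 0.49 at 40 μg/ml and rose by 0.74 ± 0.35 (1.67-fold, adjusted p = 0.0302). Its call was lost in 4 of 16 alternatives, with median centring (adjusted p = 0.0523), subtracted background (0.0865) and treated cDNA in Cy3 alone (0.07). The 4th was the fit without replicate 1, where replicate 2 averaged 0.49. *ALD2* (YMR170C), which lies beside *ALD3* and is close to it in sequence, averaged 0.02 ± 0.35, and its spot was above the blanks on 2 of 4 arrays at 40 μg/ml. The mitochondrial *ALD5* (YER073W) averaged -0.63 ± 0.50 at 40 μg/ml (adjusted p = 0.0608) and 0.24 ± 0.08 at 80 μg/ml.

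The last 4 genes serve gluconeogenesis and the refilling of the citric acid cycle. *PCK1* (YKR097W) encodes phosphoenolpyruvate carboxykinase, which glucose represses. Its ratios were 1.17 and 0.24 in replicate 1 and 0.73 and 1.36 in replicate 2 at 40 μg/ml, and 0.78, 0.89, 0.83 and 0.55 at 80 μg/ml. It was higher in treated cells on all 8 arrays and rose at 40 μg/ml by 0.88 ± 0.24 (1.84-fold, adjusted p = 0.0146), while its mean of 0.76 ± 0.10 at 80 μg/ml had an adjusted p of 0.0578 (SD, n = 2 each). The call at 40 μg/ml was lost in 1 of 15 alternatives, with the arrays that carried treated cDNA in Cy3 alone (adjusted p = 0.184). The gene was dim, at 167 to 758 in treated and 140 to 369 in untreated cells at 40 μg/ml. On 1 of the 4 arrays at that dose, the one with the ratio of 0.24, its spot was not above the blanks in treated cells. *FBP1* (YLR377C), fructose-1,6-bisphosphatase, was dim as well and averaged 0.55 ± 0.49 at 40 μg/ml and 0.12 ± 0.09 at 80 μg/ml, with adjusted p-values of 0.0891 and 0.824.

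*PYC1* (YGL062W) and *PYC2* (YBR218C) both encode cytosolic pyruvate carboxylase, and their ratios ran apart at 80 μg/ml. *PYC1* gave -1.20 and -1.39 in replicate 1 and -0.34 and -0.55 in replicate 2 at 40 μg/ml, and 0.77 and 0.66 in replicate 1 and 0.67 and 0.58 in replicate 2 at 80 μg/ml. It fell by 0.87 ± 0.60 at 40 μg/ml (1.83-fold, adjusted p = 0.0300) and averaged 0.67 ± 0.06 at 80 μg/ml (adjusted p = 0.156, SD, n = 2 each). The call was lost in 3 of 15 alternatives, with subtracted background (adjusted p = 0.0806), with treated cDNA in Cy3 alone (0.0571) and without replicate 1, where replicate 2 averaged -0.44. The arrays of the 2 doses thus lay on opposite sides of 0. *PYC2* gave -0.35, -0.34, -0.36 and -0.26 at 40 μg/ml, with a mean of -0.33 ± 0.02 (adjusted p = 0.183). At 80 μg/ml it gave -1.17, -0.64, -0.67 and -0.67 and fell by 0.79 ± 0.17 (1.73-fold, adjusted p = 0.0432). This call was lost in 6 of 15 alternatives, among them subtracted background (adjusted p = 0.191) and total pixel intensity (0.079). Either dye orientation alone lost it too (0.0947 with treated cDNA in Cy5 and 0.0522 in Cy3). It was also lost without replicate 1, where replicate 2 averaged -0.67, and without replicate 2, where replicate 1 averaged -0.91. The ratio of *PYC1* stood above that of *PYC2* on 4 of 4 arrays at 80 μg/ml, by 1.46 ± 0.23, and below it on 3 of 4 arrays at 40 μg/ml, with a difference of -0.54 ± 0.58 (SD, n = 2 each).

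Between the doses, 0 of the 35 genes passed an adjusted p of 0.05 in limma, as did 0.141% of all genes, and 9 of 35 had an unadjusted p under 0.05, against 1337 of 6388 genes. The largest difference of 80 from 40 μg/ml was that of *PYC1*, at 1.54 with a 95% confidence interval of 0.81 to 2.26 (adjusted p = 0.110). It was followed by *ALD6* (0.94, interval 0.41 to 1.47, adjusted p = 0.136), *ALD5* (0.87, interval 0.20 to 1.54, adjusted p = 0.170) and *PDC5* (0.86, interval 0.28 to 1.44, adjusted p = 0.148). *TDH1* had the largest negative difference, -0.83 with an interval of -1.42 to -0.24 (adjusted p = 0.160). For *ADH1*, *GPM1* and *PCK1* the difference was 0.03, -0.04 and -0.11, with intervals of -0.49 to 0.56, -0.57 to 0.48 and -0.68 to 0.45.

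**Figure D3:**
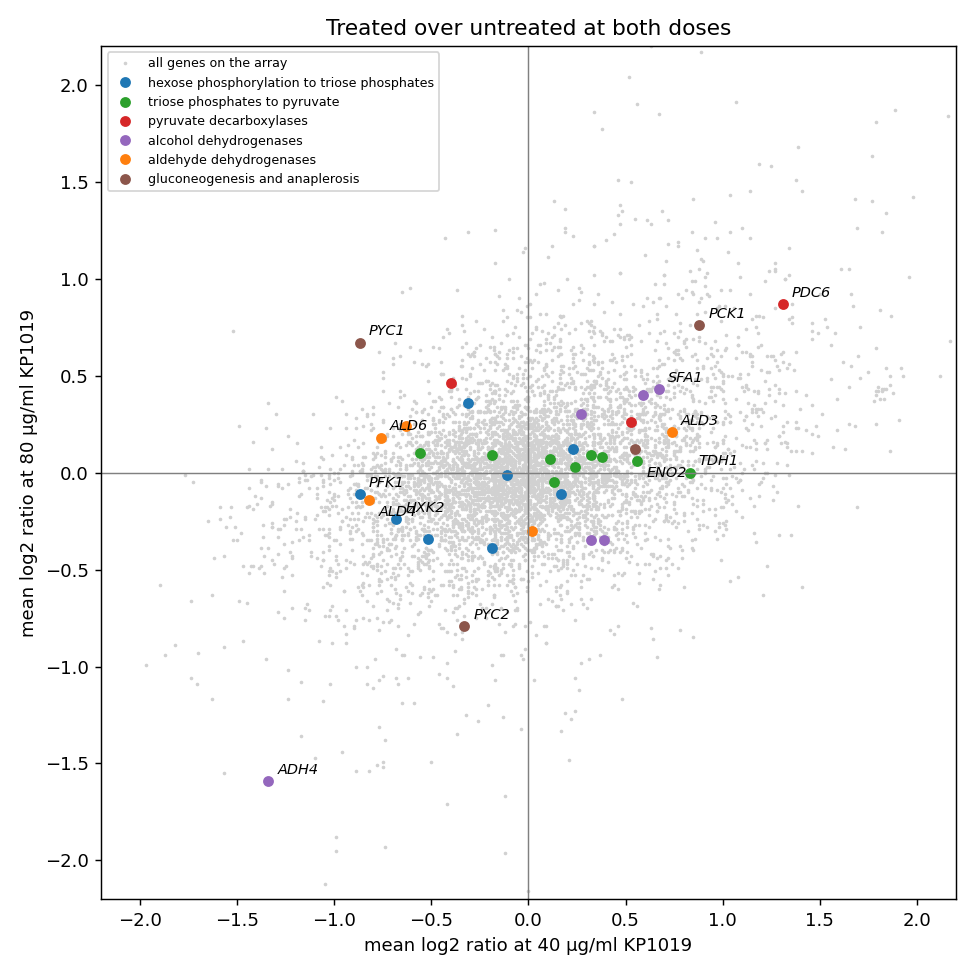
Mean log2 ratio of treated to untreated intensity at 40 μg/ml (horizontal axis) and 80 μg/ml (vertical axis), for the 35 genes (coloured by role) and all genes on the array (grey). Each point is the mean of 2 replicates per dose, the genes past the adjusted p at either dose are named, and some of the other genes lie beyond the axes. *PDC6* and *PCK1* lie in the upper right, *ADH4* in the lower left and *PYC1* in the upper left.

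Many of these genes are among the most strongly transcribed in yeast, and their spots were correspondingly bright. For 14 of them the brightness averaged at or above the 95th percentile of all genes: *GLK1*, *PGI1*, *FBA1*, *TPI1*, the 3 *TDH* genes, *PGK1*, *GPM1*, *ENO1*, *ENO2*, *CDC19*, *PDC1* and *ADH1*. Of this group, which was formed after the values were seen, 2 genes were called at 40 μg/ml and 0 at 80 μg/ml. The other 21 genes held 10 calls at 40 μg/ml and 3 at 80 μg/ml. The called shares at 40 μg/ml were 14.3% of the 14 and 47.6% of the 21, against 23.3% of all genes. At 80 μg/ml they were 0% of the 14 and 14.3% of the 21, against 3.52% of all genes. The ratios of bright spots were narrower than those of all genes, most of all at 80 μg/ml. Over the 128 brightest genes of an array, the median absolute deviation of the log2 ratio was 0.06, 0.17, 0.26 and 0.27 on the arrays at 80 μg/ml, where all genes gave 0.30, 0.35, 0.48 and 0.35. At 40 μg/ml it lay between 0.32 and 0.61, against 0.40 and 0.74 over all genes. The deposited intensities carry no mark of saturated pixels, so that a bound for these genes could not be set, and the part of signal compression in their small ratios was not tested. The median of the 14 bright genes at 40 μg/ml also depended on the scaling, at 0.20 after loess and -0.01 after median centring of the arrays.

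**Figure D4:**
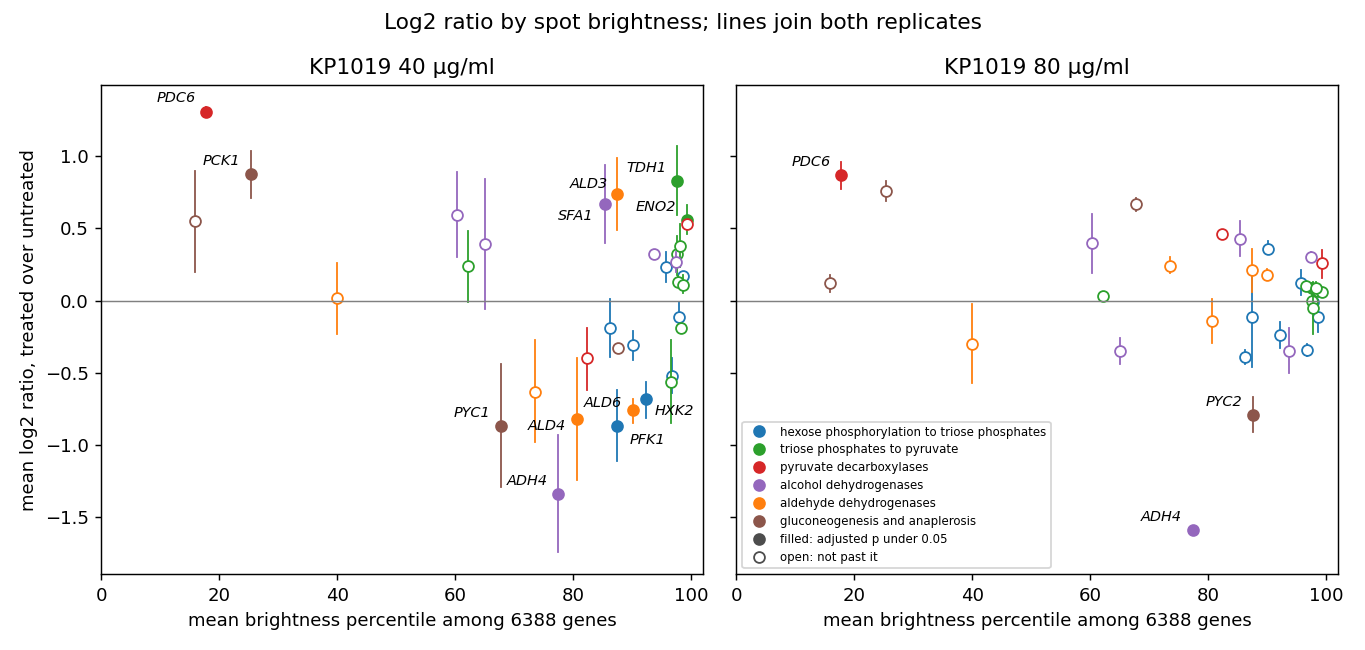
Mean log2 ratio of treated to untreated intensity (vertical axis) against the mean brightness percentile of the gene over the 8 arrays (horizontal axis), at 40 μg/ml (left) and 80 μg/ml (right). Each circle is 1 of the 35 genes, coloured by role and filled where the adjusted p was under 0.05, and lines join the values of the 2 replicates. The genes at the right edge stay close to 0 at 80 μg/ml, and *PDC6* and *PCK1* are among the dimmest.

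The brightness of *ADH2*, *ALD2* and *PDC5* differed widely between arrays. *ADH2* lay at the 97.0th percentile of brightness on 1 array and at the 12.2th on another, and 0.877% of all genes had a range as wide as its 84.8 points. Both extremes came from arrays at 80 μg/ml. *ALD2* ranged from the 8.3th to the 79.4th percentile. *PDC5* ranged from the 44.9th to the 98.6th percentile, and these 2 values came from the dye-reversal pair of replicate 2 at 80 μg/ml, which held the same pair of RNA samples. The ratios of these 3 genes rest on these uneven signals. For most of the other genes the range was smaller than the median of 28.6 points over all genes.

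The dye-reversal arrays of a replicate were compared with each other. Over the 35 genes, the log2 ratios of a pair correlated with r = 0.906 and 0.908 for replicates 1 and 2 at 40 μg/ml, and with r = 0.745 and 0.836 at 80 μg/ml. Over all genes r was 0.832, 0.698, 0.406 and 0.661 in the same order. The points of each correlation are genes of 1 pair of arrays and are not independent. Replicate 1 at 40 μg/ml had the widest ratios, with a median absolute deviation of 0.68 over all genes, against 0.32 to 0.39 for the other replicates.

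Genes that adjoin the pathway were described from 4 lists. Of 16 regulators, 3 rose and 1 fell at 40 μg/ml and 2 rose at 80 μg/ml, with medians of -0.16 and 0.06. Called genes made up 25% and 12.5% of this list, against 23.3% and 3.52% of all genes. *PFK26*, the kinase that makes the phosphofructokinase activator fructose-2,6-bisphosphate, gave 0.80, 1.03, 1.38 and 0.74 at 40 μg/ml and 0.69, 0.90, 1.32 and 0.88 at 80 μg/ml. It rose at both doses, by 0.99 ± 0.10 (adjusted p = 0.0103) and 0.94 ± 0.22 (adjusted p = 0.0252). *FBP26*, which degrades that activator, rose by 0.67 ± 0.22 at 40 μg/ml (adjusted p = 0.0315), and *PDC2*, an activator of *PDC1* and *PDC5* transcription, by 0.71 ± 0.45 (adjusted p = 0.0398). *GCR2*, an activator of glycolytic genes, fell by 1.09 ± 0.86 at 40 μg/ml (adjusted p = 0.0286). Its ratios there were -0.92 and -2.48 in replicate 1 and -0.51 and -0.45 in replicate 2, so that 1 array lay far below the others. In treated cells its spot was above the blanks on 3 of 4 arrays. *MIG2*, a repressor that acts in glucose medium, gave 1.48, 0.99, 1.26 and 1.20 at 80 μg/ml and rose by 1.23 (adjusted p = 0.0107).

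Of the 11 genes of the pentose phosphate pathway, 3 rose and 3 fell at 40 μg/ml and 2 rose at 80 μg/ml, with medians of -0.13 and 0.10. Called genes made up 54.5% and 18.2% of this list, against 23.3% and 3.52% of all genes. *GND2*, *SOL4* and *NQM1*, which encode minor isozymes, rose at 40 μg/ml by 1.65 ± 0.38, 0.75 ± 0.18 and 0.61 ± 0.21 (adjusted p = 0.00385, 0.0217 and 0.0391). *GND2* and *NQM1* also rose at 80 μg/ml, by 1.05 ± 0.17 and 1.30 ± 0.13 (adjusted p = 0.0255 and 0.00824). *GND1*, *SOL3* and *TKL1* fell at 40 μg/ml by 1.05 ± 0.09, 1.23 ± 0.70 and 0.85 ± 0.16 (adjusted p between 0.0142 and 0.0157). *TKL2*, the minor isozyme beside *TKL1*, averaged 0.41 ± 0.20 at 40 μg/ml (adjusted p = 0.109). It did not pass the test but was higher on 4 of 4 arrays at either dose, where *TKL1* was lower on 4 of 4. *TAL1*, the main transaldolase beside *NQM1*, averaged 0.03 ± 0.19 (adjusted p = 0.925), so that no fall of the main isozyme was seen in this pair. Of the 9 genes of acetyl-CoA synthesis and the glyoxylate cycle, 0 rose and 2 fell at 40 μg/ml and 0 passed the test at 80 μg/ml, with medians of -0.20 and -0.03. The called share at 40 μg/ml was 22.2%, near the 23.3% of all genes. *CIT2*, the peroxisomal citrate synthase, gave -1.41, -1.55, -1.67 and -1.74 at 40 μg/ml and fell by 1.59 ± 0.16 (adjusted p = 0.00283). *ACS2*, which makes acetyl-CoA from acetate, fell by 1.36 ± 0.61 (adjusted p = 0.00904). Of the 6 genes of the glycerol branch, *GPP2* rose by 0.77 ± 0.04 (adjusted p = 0.0173) and its isozyme *GPP1* fell by 1.16 ± 0.47 (adjusted p = 0.0104) at 40 μg/ml, and 0 passed the test at 80 μg/ml. The called share of the glycerol branch at 40 μg/ml was 33.3%, against 23.3% of all genes. Its medians at 40 and 80 μg/ml were 0.01 and 0.23.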

How the data were processed

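The 8 arrays compared KP1019-treated with untreated cells after 3 h, at 40 and at 80 μg/ml, with 2 biological replicates per dose and 2 dye-reversal arrays per replicate. Doses, replicates and dyes were taken from the labels. Per the labels and methods, the authors read the scanned images with MagicTool. Their deposited files list the foreground intensity and the background of 6688 features in the red and green channel, not normalized. They also deposited a table of ratios, in other units: signed fold changes of red over green total foreground times 1 factor per array, without background subtraction, which served as an alternative. The array's genome build is not given in the sources used here.

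Here the mean intensities were background-corrected by normexp with an offset of 50 and each array was normalized by loess, in which 85 blank and 23 control spots had weight 0 (limma 3.58.1 under R 4.3.3). Where a gene had several spots their mean was used. Ratios of arrays that carried treated cDNA in Cy3 were inverted, and each dye-reversal pair was averaged to 1 value per replicate. Of 6388 gene names, 5848 matched a RefSeq systematic name. Log2 ratios were tested with limma (lmFit and eBayes, two-sided) on the 4 replicates, which shared 1 spread (2 residual and 5.66 prior degrees of freedom), with Benjamini-Hochberg adjustment over all genes and a threshold of 0.05. The number of arrays limits the precision. Brightness is the mean log2 intensity of both channels, ranked within an array. The code was tested on simulated data.

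All 35 genes are accounted for, with values of each array for those past the adjusted p. Of the adjoining lists, genes past it with 1 direction on 4 of 4 arrays are named. Genes and lists were chosen with earlier results of these data known. The alternatives were other background, scaling, signal column and brightness settings, the authors' ratios, each dose alone, a replicate block and leaving out each replicate. Called genes that the brightness setting removed have 15 alternatives in place of 16. Arrays of either dye orientation alone and a crossed replicate block were added after the data were seen.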

Additional observations from a re-analysis of the deposited data

Results flagged for a closer look

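In 3 of the 70 sets of 4 arrays (35 genes at 2 doses), 1 array lay far from the other 3, and chance gives about 1 in 20. *GLK1* had a log2 ratio of -0.06 on the array of replicate 1 at 40 μg/ml with treated cDNA in Cy5, and 0.32 to 0.35 on the others. On the array of replicate 1 at 80 μg/ml with treated cDNA in Cy3, *SFA1* gave 0.00, against 0.55 to 0.62 on the others, and *PYC2* gave -1.17, against -0.67 to -0.64.

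For 5 of the 35 genes, the 4 arrays at 80 μg/ml all lay on one side of 0 and the 4 at 40 μg/ml on the other, as did 315 of 6388 genes (4.93%). The difference of 80 from 40 μg/ml was 0.68 for *HXK1*, -0.66 for *ADH3*, 0.87 for *ALD5*, 0.94 for *ALD6* and 1.54 for *PYC1*. The adjusted p of these differences in limma lay between 0.110 and 0.184, and none passed the test. The doses also differed in the marker genes of the strain, which cannot be told apart from dose.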

How the results depend on the processing

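With 2 replicates per dose and signals of the dimmest genes near the blanks, the counts of calls depended on the settings. Many single calls were lost when 1 replicate of their dose was left out. The counts below are of the 35 genes and stand without the share of all genes called under the same setting. They are therefore not read as particular to these genes. Of the 12 calls at 40 μg/ml, the setting with subtracted background gave 3 and that with only the arrays that held treated cDNA in Cy3 gave 4, and leaving out 1 replicate gave 6 to 21 (6 without replicate 1 and 21 without replicate 2 of that dose). Median centring gave 3 higher and 9 lower in place of 6 and 6. The 3 calls at 80 μg/ml became 0 with subtracted background, 1 with total pixel intensity, 9 with arrays scaled to one spread, 8 with each dose fitted alone, 1 with arrays of either dye orientation alone, and 1 to 8 without 1 replicate (1 without either replicate of 80 μg/ml, 8 without either of 40 μg/ml). Restricting the fit to genes above the 95th percentile of the blanks left 25 of the 35 genes and 0 calls at 80 μg/ml, because *PDC6*, *ADH4* and *PYC2* were not among the 25. Between the doses, 0 calls became 5 with scaled arrays and 0 to 13 without 1 replicate (3 and 13 without replicate 1 and 2 of 40 μg/ml). Leaving out a replicate assumes that a lone sample varies like the others, and the cause of the other changes was not tested. For the dose that kept both replicates, it gave the same fit as each dose fitted alone. The 2-fold criterion found 2 genes in place of 0, and its counts over all genes are given above. With the replicate number as a replicate block, the counts were 13, 4 and 1. The labels do not say that a number was shared between doses, and the deviations correlated with r = -0.136, so that crossed numbers were added, which gave 18, 5 and 5. No value past the threshold changed direction, and 43 of 1615 values in all changed sign below it. Among the values of single genes over these alternatives, 44 lost their call at 40 μg/ml and 14 at 80 μg/ml with the same direction, and 29, 25 and 27 gained one at 40 μg/ml, at 80 μg/ml and between the doses.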

Other observations

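*IDP2*, the cytosolic isocitrate dehydrogenase of the acetyl-CoA list, was singled out after its values were seen. At 80 μg/ml its log2 ratios were 3.97 and 0.83 on the 2 arrays with treated cDNA in Cy3, and -2.03 and -2.50 on the 2 arrays with treated cDNA in Cy5, so that the sign went with the dye in both replicates. Its mean at that dose was 0.07 ± 1.27 (SD, n = 2). At 40 μg/ml the 4 arrays gave 0.01 to 0.36.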
